A study of Mus musculus with 375 samples.

Results

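The circadian clock genes Nr1d1, Nr1d2, Per1, Per2, Per3, Dbp, Tef, Arntl, Clock and Cry1 were followed in single heart muscle cells of mice whose hearts were under pressure overload. These 10 genes, of 21872 in the count table, were chosen by symbol, with earlier results of the same data known, and all 10 were found. They were taken up because Nr1d2 had been seen to be low in CD8-depleted cells, so the level of Nr1d2, and every comparison of the members between CD8-depleted and WT cells, is given below as a description without a test. The question put to the other members was whether the numbered cell sets stood at different phases of the clock, which would show as Nr1d1, Dbp and the Per genes moving against Arntl.

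RNA was read by Smart-seq2, a method that copies whole transcripts of a hand-picked cell, in 375 cardiomyocytes from the left ventricle 2 weeks after TAC (transverse aortic constriction), in which the aorta is narrowed to load the heart. All groups carried the TAC operation and shared the C57BL/6N strain label, and by the study's methods all were young adult males. WT mice (128 cells) carried neither of the other groups' changes, CD8-depleted mice (136 cells) received repeated injections of an anti-CD8 antibody from the day of TAC, and CD3e-/- mice (111 cells) carry a germline loss of Cd3e, part of the T cell receptor complex, and so have no mature T cells from birth. Animals were housed under a 12-h light/dark cycle, and the hour at which each heart was taken is not given in the sources used here. Each group was collected as 2 numbered sets. The methods speak of a pair of mice as the source of the cells. Whether a number stands for a mouse or for a day is not given in the sources used here, so n = 2 sets per group and p-values may measure only technical spread.

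The mammalian clock is a loop of transcription factors that runs in nearly every cell. The proteins of Arntl (BMAL1) and Clock pair on DNA elements called E-boxes and switch on the Per, Cry, Nr1d and PAR bZIP genes, whose products act back on the loop. PER and CRY proteins block the pair, REV-ERB proteins made from Nr1d1 and Nr1d2 repress Arntl through elements called ROREs, and DBP and TEF drive D-box genes such as the Per genes. Since REV-ERBs repress it, Arntl RNA in mouse heart is known to peak at the opposite time of day from Nr1d1, Dbp and Per transcripts.

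Promoter windows of 6 members (Nr1d1, Per1, Per3, Cry1, Tef and Arntl) held such elements, and the stretches are shown because these elements are how the loop's factors are known to reach its genes. No element searched was in the windows of Dbp, Clock and Nr1d2, and Per2 had no window. RefSeq windows of 300 bases (GRCm38.p6, from 250 bases before to 50 bases after a transcript start) were found for 9 of 10 members in 14 windows. They were searched on both strands for the E-box CACGTG, the E-box variant CACGTT (printed for Nr1d1 as its reverse complement), the D-boxes TTATGTAA and TTACGTAA and the ROREs TAGGTCA and TGGGTCA. The whole upstream stretch is printed for Nr1d1 and Per3, and 30 bases around the match for the others, 5′ to 3′ on the strand of the gene, with the element in capitals.
Nr1d1 (chr11:98775378-98775627, minus strand, E-box variant): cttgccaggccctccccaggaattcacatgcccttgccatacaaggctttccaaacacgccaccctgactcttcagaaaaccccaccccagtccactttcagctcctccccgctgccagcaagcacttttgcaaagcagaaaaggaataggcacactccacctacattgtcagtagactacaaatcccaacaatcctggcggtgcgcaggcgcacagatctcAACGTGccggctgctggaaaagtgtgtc
Per3 (chr4:151044666-151044915, minus strand, D-box): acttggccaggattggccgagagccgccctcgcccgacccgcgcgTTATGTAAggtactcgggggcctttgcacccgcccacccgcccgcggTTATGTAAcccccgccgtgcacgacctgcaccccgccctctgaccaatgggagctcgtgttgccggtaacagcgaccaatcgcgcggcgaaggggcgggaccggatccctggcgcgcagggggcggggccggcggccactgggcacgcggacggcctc
Per1 (chr11:69098771-69098800, plus strand, E-box): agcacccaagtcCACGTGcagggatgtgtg
Cry1 (chr10:85185097-85185126, minus strand, E-box): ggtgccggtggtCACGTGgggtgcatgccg
Tef (chr15:81802534-81802563, plus strand, E-box): gtgctgtggctcCACGTGctgcagctggca
Arntl (chr7:113207529-113207558, plus strand, RORE): gaaggcagaaagTAGGTCAgggacggaggt

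The E-box CACGTG stood in windows of Per1, Cry1 and Tef, that is 4 of the 14, and in 7.15% of all 32851 promoter windows. The Tef stretch printed, 127 bases before the transcript start of its window, lies within annotated exon bases of Tef. Its variant CACGTT stood in windows of Nr1d1 and Cry1, against 4.69% of all windows. The D-box TTATGTAA occurred at 205 and 158 bases before the Per3 start and in no other member, against 0.938% of all windows. The RORE TAGGTCA, which 2.61% of windows hold, stood 30 bases into the Arntl transcript, and TTACGTAA (0.119%) and TGGGTCA (3.98%) were in no member's window. These are matches of letters in a short window and say nothing about binding.

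After cells with fewer than 3000 detected genes and a pair of cells with identical counts were left out, 320 cells remained, with 59 and 62 cells in sets 1 and 2 of WT, 62 and 49 of CD8-depleted, 11 and 77 of CD3e-/- mice. Values below follow this order. Each level is given as CPM, a gene's counts summed over the cells of a set and scaled to the usual common total of nuclear counts. The sums were 5469742 to 24057660 nuclear counts in 5 sets and 604652 in CD3e-/- set 1. CD3e-/- set 1 stood apart, with 35.5% of its cells kept and 13206 CPM of olfactory and vomeronasal receptor transcripts against 53.8 to 222 CPM elsewhere. A gene with 3 counts reads 4.96 CPM in that set and 0.125 to 0.548 CPM in the others, so results that rest on it are given with and without it. The median share of mitochondrially encoded transcripts per cell was 77.3% and 85.3% in the WT sets and 90.8% to 94.1% in the 4 other sets. The 8 cardiomyocyte markers summed to 111193 to 156940 CPM in the 5 other sets and 55791 CPM in CD3e-/- set 1. The 8 fibroblast markers summed to 108 and 23.6 CPM in WT, 99 and 315 CPM in CD8-depleted and 427 and 171 CPM in CD3e-/- sets, and over the 5 sets Mfap5 and Lum passed as higher in CD8-depleted than in WT and Mfap5 in CD3e-/-, with edgeR adjusted p of 5.36e-06, 0.00201 and 2.25e-05. In every fit that leaves out a CD3e-/- set, that group is 1 set, which is assumed to vary as the WT and CD8-depleted sets do. Pdgfra was at 0 in WT set 2 and CD8-depleted set 1. The 7 endothelial markers (82.9 to 312 CPM), the 6 mural markers (159 to 355 CPM) and the 8 leukocyte markers (3.60 to 19.5 CPM) were at trace levels in the 5 sets and at 863, 1075 and 121 CPM in CD3e-/- set 1, with Cd8a at 0 in 5 of the 6 sets and Cd3e at 0 in both WT sets. Cd3e had 1 and 2 reads in the CD8-depleted sets and 4 and 37 reads in the CD3e-/- sets, whose mice carry its germline loss. Where these reads came from was not tested, nor was how far the differences between sets enter the clock genes' values.

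Per length of exon, Nr1d1 was the most abundant clock transcript in the 5 sets other than CD3e-/- set 1, at 25.3 ± 7.36 CPM per kb (SD, n = 5), and it led Tef in all 5 sets without overlap of their ranges. Tef followed at 9.40 ± 4.35 CPM per kb, then Per1 at 6.14 ± 1.90, Nr1d2 at 5.34 ± 3.76 and Dbp at 4.02 ± 1.74 CPM per kb. Clock came to 2.05 ± 0.470, Per3 to 1.59 ± 0.546, Cry1 to 1.05 ± 0.563, Per2 to 0.848 ± 0.653 and Arntl to 0.452 ± 0.448 CPM per kb. From Tef downward, the ranges of every pair of neighbours in this order overlapped. Of these pairs, only Dbp above Clock was held in each of the 5 sets, as was the place of Nr1d1 at the top. The activator Arntl had the lowest mean, but Per2 was above it in only 3 of the 5 sets. Clock, the other activator, had a higher mean than the targets Per3, Cry1 and Per2.

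**Figure D1:**
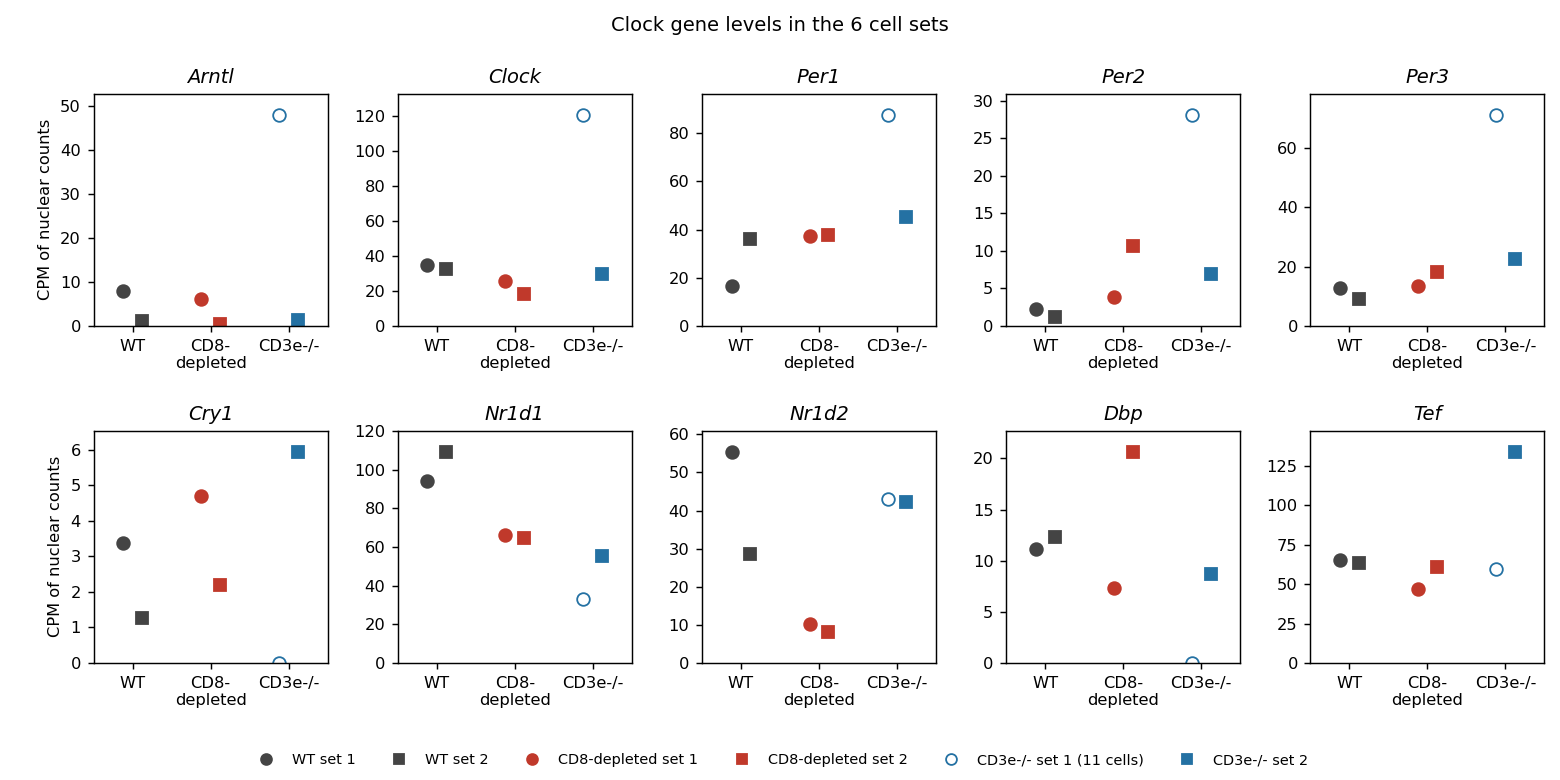
CPM of nuclear counts (y axis, linear, from 0, scaled per panel) of the 10 clock genes in the 6 cell sets, 1 point per set, with circles for set 1 and squares for set 2 of WT (grey), CD8-depleted (red) and CD3e-/- (blue, open for the 11 cells of set 1). Nr1d2 sat at 8.04 and 10.3 CPM for CD8-depleted and at 28.6 CPM or more elsewhere, and Arntl was higher in set 1 than in set 2 of each group.

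Nr1d1 encodes REV-ERBα, the stronger of the REV-ERB repressors in most mouse tissues. Its level was 94.0 and 109 CPM in WT, 66.5 and 64.5 CPM in CD8-depleted, and 33.1 and 55.6 CPM in CD3e-/- sets. All 4 CD8-depleted and CD3e-/- sets read below both WT sets, and sets of 1 group lay close to each other in WT and CD8-depleted. The order stayed when each set's highest cell was left out (76.9 and 97.9 CPM in WT against 45.6 to 57.2 CPM in the 3 well-filled other sets) and when every cell was given the same weight (74.7 and 105 CPM against 59.2 to 72 CPM). With normalization factors from edgeR (TMM) in the CPM, the WT sets read 96.9 and 145 CPM and the others 17 to 80.8 CPM. Nr1d1 (chromosome 11, 98767932 to 98775333, mm10) shares 263 bases, 8.55% of its exon length, with Thra on the other strand, and Smart-seq2 reads do not tell strands apart. Thra, a thyroid hormone receptor gene, read 58.4 and 64.8 CPM in WT, 62.8 and 73.3 CPM in CD8-depleted, and 81.0 and 52 CPM in CD3e-/- sets, a different order from that of Nr1d1.

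Nr1d2 encodes REV-ERBβ, the partner repressor, and chose the members, so its values are descriptive. It read 55.4 and 28.6 CPM in WT, 10.3 and 8.04 CPM in CD8-depleted and 43 and 42.1 CPM in CD3e-/- sets. In plain CPM the CD8-depleted sets were thus alone at the bottom, while the CD3e-/- sets fell within the WT range. With TMM factors the WT sets read 57.1 and 37.9 CPM and the CD8-depleted sets 12.6 and 9.13 CPM. The CD3e-/- sets then read 22.1 and 43.5 CPM, so that set 1, with 26 reads, lay below both WT sets. In counts, the CD8-depleted sets held 79 and 44 reads in 24 of 62 and 16 of 49 cells, and the WT sets 1313 and 587 reads in 51 of 59 and 40 of 62 cells. The 2 WT sets differed 1.94-fold (95% counting interval 1.76 to 2.14), and in WT set 2 a single cell supplied 31.3% of the reads. Without each set's highest cell the WT sets held 50.9 and 19.6 CPM, the CD8-depleted sets 7.98 and 5.85 CPM and CD3e-/- set 2 35.1 CPM. The ratio of Nr1d2 to Nr1d1 was 0.589 and 0.261 in WT, 0.156 and 0.125 in CD8-depleted and 0.758 in CD3e-/- set 2, a gap between the WT sets larger than that between WT set 2 and CD8-depleted set 1. Counting intervals here cover counting error only, since reads of 1 cell are copies of few molecules.

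The Per genes encode the PERIOD repressors. Per1, which also answers to glucocorticoids and other acute signals, read 16.5 and 36.2 CPM in WT, 37.4 and 37.7 CPM in CD8-depleted, and 87.7 and 45 CPM in CD3e-/- sets. The CD8-depleted sets were just above the higher WT set, and with TMM factors WT set 2 (47.9 CPM) lay above all 4 CD8-depleted and CD3e-/- sets (42.7 to 46.4 CPM) and WT set 1 (17 CPM) below them, so the order of Per1 against WT depended on the scaling. In CD3e-/- set 1, 88.7% of the Per1 reads came from 1 cell, and without it the set read 9.92 CPM.

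Per2 was low throughout, at 2.32 and 1.17 CPM in WT, 3.79 and 10.6 CPM in CD8-depleted, and 28.1 and 6.94 CPM in CD3e-/- sets. All CD8-depleted and CD3e-/- sets lay above both WT sets, on 55 and 24 reads in WT, 29 and 58 in CD8-depleted and 17 and 167 in CD3e-/- sets. Per3, whose promoter carries the pair of D-boxes printed above, read 12.9 and 9.10 CPM in WT, 13.5 and 18.1 CPM in CD8-depleted, and 71.1 and 22.7 CPM in CD3e-/- sets. CD8-depleted set 1 and WT set 1 were close, and without each set's highest cell the values were 10.2 CPM in both.

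Cry1, a cryptochrome that joins PER in the repressor complex, had 3.38 and 1.27 CPM in WT, 4.71 and 2.19 CPM in CD8-depleted, 0 reads in CD3e-/- set 1 and 5.94 CPM in CD3e-/- set 2. The groups overlapped, set 1 was higher in WT and CD8-depleted, and a single cell supplied 66.7% of the 36 reads in CD8-depleted set 1. A count of 0 in CD3e-/- set 1 allows up to 4.96 CPM, more than the WT mean of 2.32 CPM, so a lower level was not detectable there.

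Arntl, the partner of CLOCK, had 7.89 and 1.12 CPM in WT, 6.15 and 0.548 CPM in CD8-depleted, and 48 and 1.29 CPM in CD3e-/- sets. The split ran between sets and not between groups: set 1 was high and set 2 low in each group. The reads numbered 187 and 23, 47 and 3, and 29 and 31, in 15 of 59, 7 of 62, 11 of 62, 3 of 49, 6 of 11 and 7 of 77 cells. Set 1 exceeded set 2 by 7.05-fold in WT (95% counting interval 4.56 to 11.4) and by 11.2-fold in CD8-depleted (3.61 to 56.3). Without the highest cell the WT sets kept 5.78 and 0.438 CPM and the CD8-depleted sets 3.79 and 0.366 CPM.

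Clock, the other activator and the member that oscillates least in most tissues, read 34.9 and 32.5 CPM in WT, 25.5 and 18.5 CPM in CD8-depleted, and 121 and 29.5 CPM in CD3e-/- sets. The CD8-depleted sets lay below both WT sets and CD3e-/- set 2 lay just below them, while CD3e-/- set 1 was the highest of all, with 49.3% of its 73 reads from 1 cell. A single cell also held 36.4% of the reads in WT set 2, which read 20.6 CPM without it, against 20.7 and 16.1 CPM in the CD8-depleted sets.

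Dbp and Tef encode PAR bZIP factors, which pass the rhythm on to D-box genes. Dbp, among the strongest cycling transcripts of mouse tissues, read 11.1 and 12.4 CPM in WT, 7.33 and 20.7 CPM in CD8-depleted, 0 in CD3e-/- set 1 and 8.69 CPM in CD3e-/- set 2. The CD8-depleted sets straddled WT, with set 2 2.82-fold above set 1 (95% counting interval 2.03 to 3.96). With the 0 of CD3e-/- set 1 set at 3 counts for that library, its level would be at least 2.37-fold lower than the WT mean. This bound covers counting error only and not which 11 cells were picked, so a lower level was not established. Dbp (chromosome 7, 45705088 to 45710203) shares 539 exon bases, 18% of its exon length, with Sphk2 on the other strand, which read 11 and 12.9 CPM in WT, 20 and 9.14 in CD8-depleted, and 1.65 and 10.7 in CD3e-/- sets. Tef read 65.3 and 63.4 CPM in WT, 46.7 and 60.5 CPM in CD8-depleted, and 59.5 and 134 CPM in CD3e-/- sets. CD3e-/- set 2 stood above every other set, with reads in 75 of 77 cells and 10.6% of its reads in the highest cell.

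CD8-depleted cells were compared with WT cells to describe the contrast in which the members had been picked. Fitted log2 fold changes (edgeR, 6 sets) were −2.13 (SE 0.70) for Nr1d2 and −0.65 (SE 0.73) for Nr1d1 among the REV-ERBs. The Per genes had 0.44 (SE 0.69) for Per1, 2.07 (SE 1.17) for Per2 and 0.54 (SE 0.70) for Per3, and Cry1 had 0.67 (SE 1.69). The activators had −0.24 (SE 1.56) for Arntl and −0.60 (SE 0.67) for Clock, and the output factors 0.21 (SE 1.18) for Dbp and −0.27 (SE 0.76) for Tef. The median over the 10 was −0.01 beside 0.02 over all 12936 genes tested, all 10 having passed the low-count filter. In plain CPM, 4 members (Nr1d1, Nr1d2, Clock, Tef) had both CD8-depleted sets below both WT sets, where 19.8% of all genes did, and 3 (Per1, Per2, Per3) had both above, where 21% of all genes did. With TMM factors Tef and Per1 left these lists, which then held 3 and 2 members beside 20.5% and 20.6% of all genes. Over all genes 0.0% (0 of 12936) passed an adjusted p of 0.05 by edgeR in the 6 sets, with 341 at an unadjusted p under 0.05, 8 by DESeq2 and 0 by limma-voom, and 0.239% (32 of 13374) passed by edgeR in the 5 sets without CD3e-/- set 1. In that fit Nr1d2 was at −2.15 (SE 0.53) and Nr1d1 at −0.67 (SE 0.40).

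**Figure D2:**
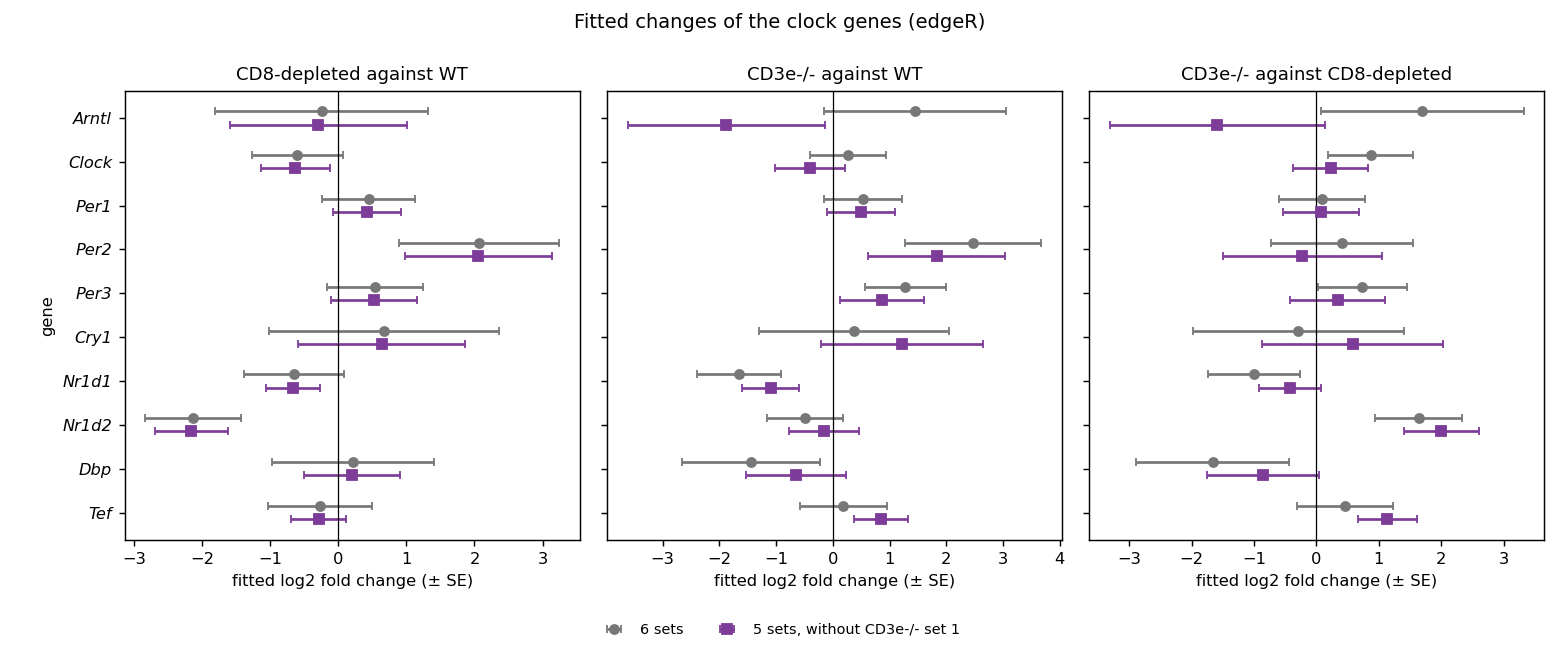
Fitted log2 fold change (x axis) with its standard error of each clock gene in the 3 group comparisons, by edgeR over all 6 sets (grey circles) and over the 5 sets without CD3e-/- set 1 (purple squares). Nr1d2 lay at −2.13 and −2.15 in CD8-depleted against WT, and Arntl changed sign against WT between the fits (1.46 and −1.88 for CD3e-/-).

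CD3e-/- cells were compared with the same WT sets, and the 9 members other than Nr1d2 were tested. The value for Nr1d1 was −1.65 (SE 0.75, edgeR adjusted p = 0.599) over 6 sets and −1.10 (SE 0.51, adjusted p = 1) over 5 sets. Per2 was at 2.48 (SE 1.20, adjusted p = 0.621) over 6 sets and 1.83 (SE 1.21, adjusted p = 1) over 5, and Per3 at 1.28 (SE 0.71, adjusted p = 0.69) and 0.86 (SE 0.74, adjusted p = 1). None of the 9 passed by edgeR, DESeq2 or limma-voom in the 6 sets. Of all 12936 genes, edgeR called 0.0%, DESeq2 called 611 and limma-voom 0. An unadjusted p under 0.05 was reached by 1 member (Nr1d1) by edgeR, 2 by DESeq2 and 0 by limma-voom. By edgeR 1071 of all 12936 genes reached it. None passed in the 5 sets either, where 0.127% of all genes did and again Nr1d1 alone had an unadjusted p under 0.05. Nr1d2, not tested, had −0.49 (SE 0.67) and −0.15 (SE 0.61).

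The fitted values of the other members against WT, apart from Per1, moved when the 11 cells of CD3e-/- set 1 were left out. Arntl was at 1.46 (SE 1.61) with that set and −1.88 (SE 1.74) without it, and Clock at 0.27 (SE 0.67) and −0.40 (SE 0.62). Tef was at 0.19 (SE 0.76) and 0.85 (SE 0.47), Dbp at −1.45 (SE 1.22) and −0.66 (SE 0.88), Cry1 at 0.38 (SE 1.68) and 1.22 (SE 1.42), and Per1 at 0.54 (SE 0.69) and 0.50 (SE 0.60). Adjusted p was 0.807 or more for these 6 in either fit (edgeR). When CD3e-/- set 2 was left out instead, so that the 11 cells stood for the group as 1 set and the spread came from the WT and CD8-depleted sets alone, Nr1d1 (−2.84, SE 0.60, adjusted p = 0.000642) and Dbp (adjusted p = 0.0103) passed, in a fit where 33.2% of all genes passed.

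Between CD3e-/- and WT in plain CPM, 2 members (Nr1d1, Dbp) had both CD3e-/- sets below both WT sets, beside 8.7% of all genes, and 3 (Per1, Per2, Per3) had both above, beside 28%. For CD3e-/- set 2 alone, 3 members (Nr1d1, Dbp, Clock) lay below both WT sets, beside 18.4% of genes, and 5 (Per1, Per2, Per3, Cry1, Tef) above, beside 39.9%. With TMM factors Per1 left the higher lists and Arntl joined the lower list of set 2. The shares of all genes then became 17.2% below and 19.3% above for both sets, and 26.5% below and 32% above for set 2. The WT sets are those of the contrast that chose the members, so a shared position against WT is not a repeated observation.

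CD3e-/- was also set against CD8-depleted. Nr1d2 stood at 1.64 (SE 0.70) over 6 sets and 2.00 (SE 0.60) over 5, without a test, since the CD8-depleted sets are those in which it was seen to be low. Tef had 0.46 (SE 0.76, edgeR adjusted p = 0.951) and 1.14 (SE 0.47, adjusted p = 1), Nr1d1 −1.01 (SE 0.74, adjusted p = 0.942) and −0.42 (SE 0.49, adjusted p = 1), and Per1 0.09 (SE 0.69) and 0.07 (SE 0.61). None of the 9 members tested passed by edgeR, DESeq2 or limma-voom in 6 sets, with 0 at an unadjusted p under 0.05 by each, beside 0.0% of all genes by edgeR, nor in 5 sets, beside 0.015% of all genes and with 1 member, Tef, at an unadjusted p under 0.05. Without CD3e-/- set 2, Nr1d1 (−2.18, SE 0.59, adjusted p = 0.00659) and Dbp (adjusted p = 0.0106) passed where 25.1% of all genes did. Standard errors of the tested members in these comparisons were 0.47 to 1.74 on the log2 scale, so a member that did not pass may still differ.

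Whether the sets stood at different clock phases was read from the phase contrast. It is the mean log2(CPM + 1) of Nr1d1, Dbp, Per1, Per2 and Per3 minus that of Arntl. The added 1 CPM keeps a common scaling of all genes from cancelling where Arntl is low, as in each set 2. The contrast was 0.81 and 2.96 in WT, 1.27 and 4.08 in CD8-depleted, and −1.09 and 3.24 in CD3e-/- sets. With mitochondrially encoded genes kept in the totals, it was 0.74 and 1.82, 0.75 and 1.72, and −0.39 and 1.51. CD8-depleted set 2 read 5.27 with 0.1 CPM added and 2.47 with 5 CPM added. In the first of these forms, set 2 was above set 1 in each group, by more than the groups differed. The means there were 1.88 ± 1.51 (SD, n = 2) in WT, 2.67 ± 1.99 in CD8-depleted and 1.07 ± 3.07 in CD3e-/-. The spread between the sets of a group was thus larger than any difference between group means. No test was made of the contrast, which was built from the genes of the selection. Opposite moves of Nr1d1 and the Per genes cancel within its 5-gene mean. The ratio of Per1 to Nr1d1 was 0.175 and 0.331 in WT, 0.563 and 0.584 in CD8-depleted, and 2.65 and 0.810 in CD3e-/- sets. The WT sets thus had the lowest values, without a test. In CD3e-/- set 1 Per1 rested mostly on a single cell. The ratios of Nr1d1 and of Per1 to Arntl overlapped between groups.

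**Figure D3:**
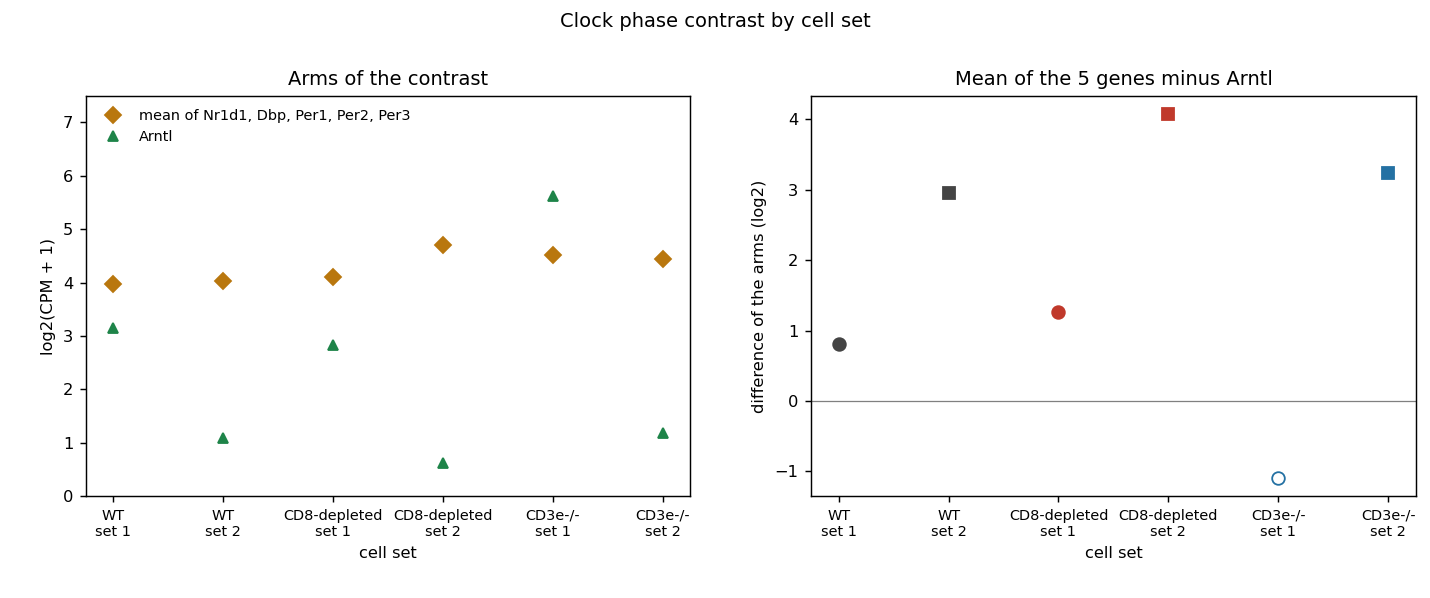
Left, mean log2(CPM + 1) of Nr1d1, Dbp and the Per genes (diamonds) and log2(CPM + 1) of Arntl (triangles) in each cell set; right, their difference (circles set 1, squares set 2, open for the 11 cells of CD3e-/- set 1). The 5-gene arm ran from 3.97 to 4.71, whereas Arntl ran from 0.63 to 5.61 and set the order of the differences.

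The contrast moved mostly with Arntl. The arm of 5 genes spanned 3.97 to 4.71 over the 6 sets, and Arntl spanned 0.63 to 5.61, or 0.63 to 3.15 without CD3e-/- set 1. Within CD8-depleted the arm also differed, at 4.10 and 4.71. Within WT the arm differed by 0.07 between the sets, with Per1 2.20-fold higher in set 2 (95% counting interval 1.94 to 2.49), Nr1d1 1.16-fold higher (1.096 to 1.23), Dbp 1.11-fold higher (0.930 to 1.32), and Per3 and Per2 higher in set 1, by 1.42-fold (1.18 to 1.71) and 1.99-fold (1.21 to 3.36). Within CD8-depleted, Per2, Dbp and Per3 were 2.79-fold (1.76 to 4.53), 2.82-fold and 1.34-fold (1.01 to 1.79) higher in set 2. Nr1d1 and Per1 were 1.03-fold (0.897 to 1.18) and 0.994-fold (0.828 to 1.19) as high in set 1 as in set 2. The genes known to cycle with Nr1d1 were thus not all higher where Arntl was low, with Per2 and Per3 going the other way in WT.

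Set against all genes, the differences between sets of a group were ordinary. At least 2-fold apart in WT were 3 of 10 members (Arntl, Per1, Cry1), where 42% of all genes were, and in CD8-depleted 4 members (Arntl, Per2, Cry1, Dbp), where 38.8% were. At least 4-fold apart was 1 member in each, Arntl, where 21.2% and 19.9% of genes were. Set 1 exceeded set 2 in all 3 groups for Arntl, Clock and Nr1d2, as it did for 15.7% of genes, and set 2 exceeded set 1 in all 3 for Dbp, as for 6.04%. Neither what a set number shares across groups nor the hour of collection is given in the sources used here.

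**Figure D4:**
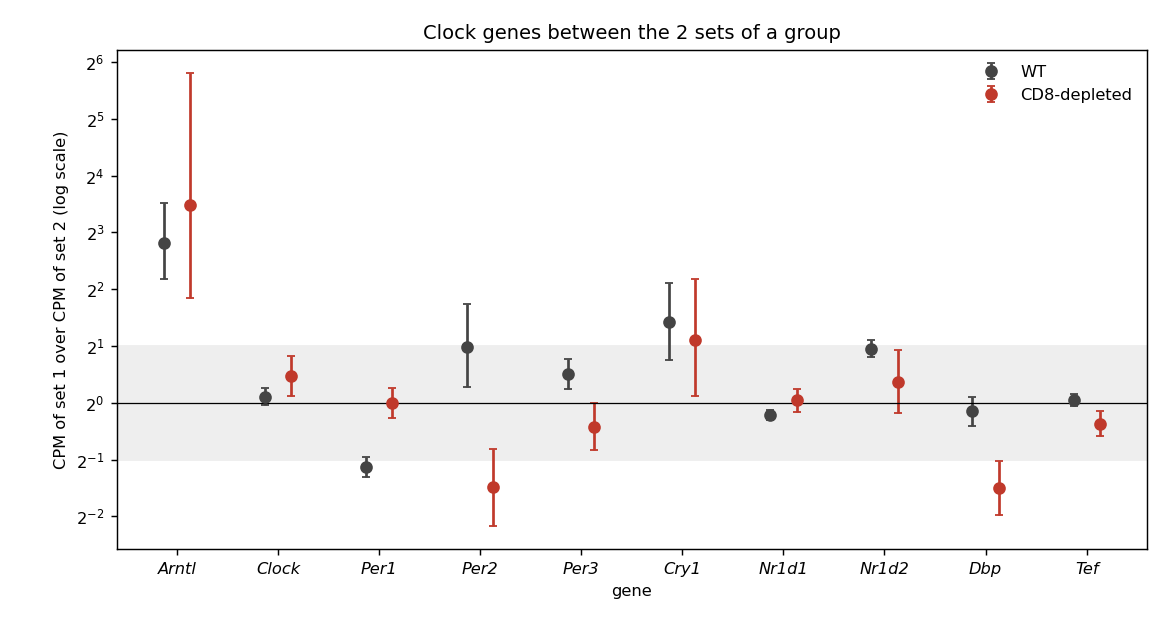
CPM of set 1 divided by CPM of set 2 (y axis, log scale) for each clock gene in WT (grey) and CD8-depleted (red), with exact 95% intervals for counting error only; the shaded band marks ratios under 2-fold. Arntl was 7.05 and 11.2 times as high in set 1, and Nr1d1 and Tef stayed within the band in both groups.

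In single cells the members split into genes read in most cells and genes read in few. A cell of the 5 larger sets had reads of 4 to 6 of the 10 members at the median, and no cell lacked all of them. Nr1d1 was read in 93.2% and 98.4% of WT cells (Wilson 95% intervals 83.8 to 97.3% and 91.4 to 99.7%), in 82.3% and 61.2% of CD8-depleted cells (71 to 89.8% and 47.2 to 73.6%) and in 79.2% of the cells of CD3e-/- set 2 (68.9 to 86.8%). Tef was read in 73.5% to 97.4% of the cells of these sets, Per1 in 49.2% to 81.8% and Clock in 51.6% to 81.4%. Arntl (6.12% to 25.4%), Cry1 (8.16% to 23.7%) and Per2 (9.68% to 28.6%) were read in a minority, and Dbp (25.8% to 36.4%) and Per3 (29% to 64.9%) lay between.

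Since the median nuclear count per cell was 413073 and 242696 in WT, 96256 and 98953 in CD8-depleted and 223873 in CD3e-/- set 2, shares were also read after thinning cells to 50000 nuclear counts (303 cells). Nr1d2 was then read in 61% and 35.5% of WT cells, 28.1% and 21.7% of CD8-depleted cells and 60% of the cells of CD3e-/- set 2. The gap between CD8-depleted and WT narrowed from 38.7% against 64.5%, between the nearest sets before thinning, to 28.1% against 35.5%. Nr1d1 was read in 74.6% and 90.3% of thinned WT cells, 78.9% and 54.3% of CD8-depleted cells and 60% in CD3e-/- set 2, so that the groups overlapped. Per1 was read in 30.5% of thinned cells of WT set 1 and in 60.9% to 66.7% of those of the 4 other sets, and Tef in 89.3% in CD3e-/- set 2 against 60.9% to 70.2%. Arntl was read in 10.2% and 10.5% of the thinned cells of set 1 of WT and CD8-depleted and in 1.61%, 4.35% and 2.67% of those of the 3 set 2 samples.

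**Figure D5:**
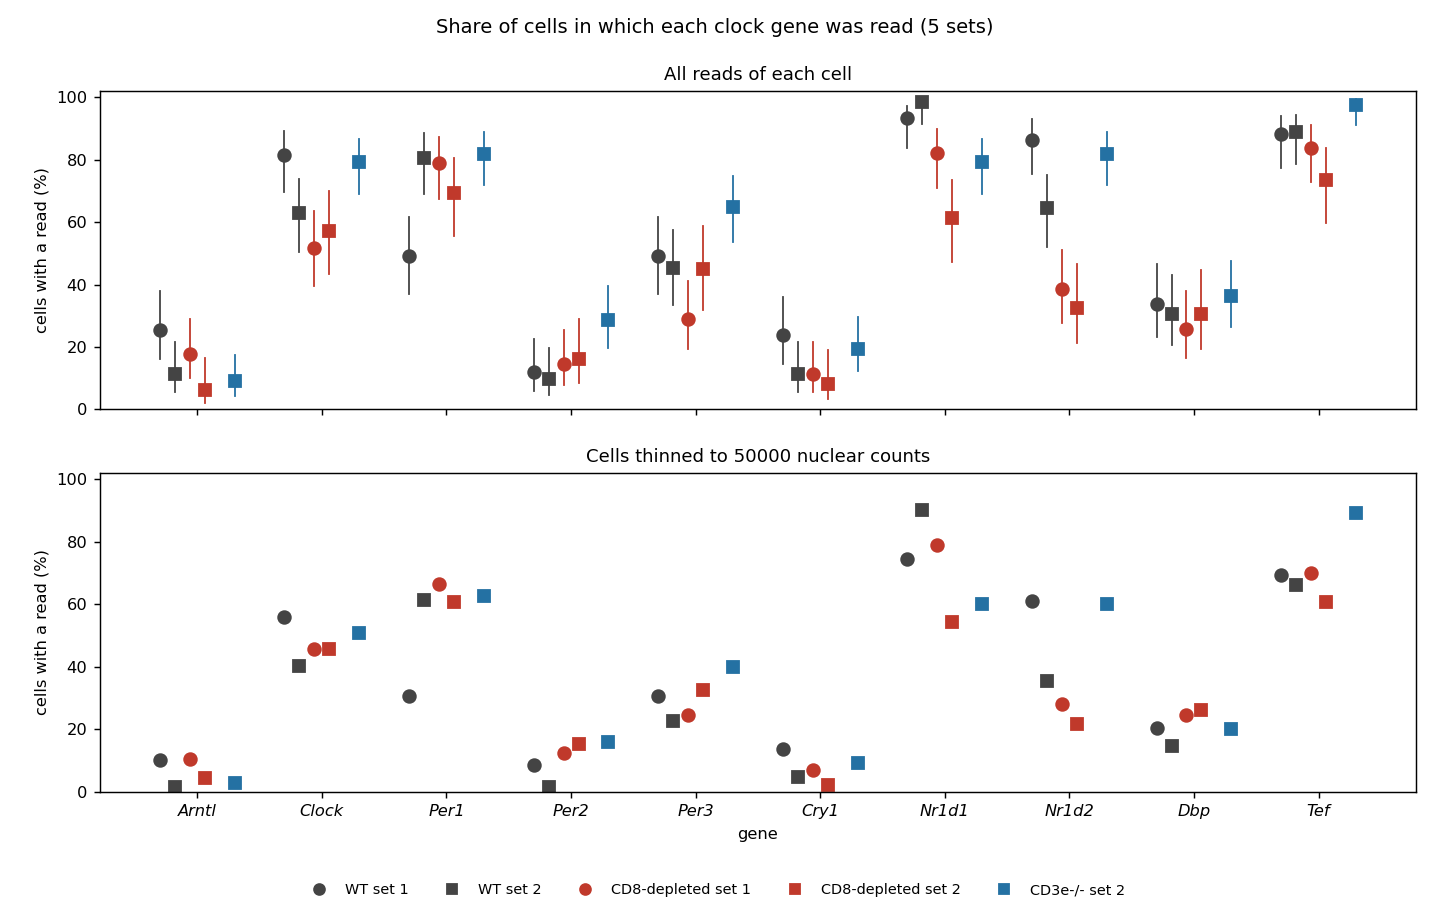
Percentage of cells with a read of each clock gene in the 5 sets other than CD3e-/- set 1, from all reads of a cell with Wilson 95% intervals (top) and after thinning each cell to 50000 nuclear counts (bottom); grey WT, red CD8-depleted, blue CD3e-/-, circles set 1 and squares set 2. Nr1d2 was read in 28.1% and 21.7% of thinned CD8-depleted cells and in 35.5% to 61% of the others.

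Whether clock genes varied together from cell to cell was read within each set. Over the 45 pairs of members, the Spearman coefficient in thinned cells, averaged over 5 sets (299 cells in all), ran from −0.11 (Per1 with Per2) to 0.18 (Per3 with Dbp), with a median of 0.01. Arntl and Nr1d1, known to peak at opposite times, had a mean coefficient of 0.09 (−0.03 to 0.28 over sets), and Nr1d1 was read in 14 of 15 cells with and 41 of 44 cells without an Arntl read in WT set 1. In sparse counts such weak coefficients are no finding. Among 4145 genes read in at least 25% of the thinned cells of each set, those most like Nr1d2 were Tomm22 (mean coefficient 0.27, range 0.19 to 0.40), Ndel1 (0.24), Fam222b (0.23), Zmym4 (0.23) and Eif4g2 (0.22), with Per1 and Nr1d1 at ranks 778 and 807 (0.08 and 0.07). Across sets, Tomm22 read 118 and 94.4 CPM in WT and 106 and 101 CPM in CD8-depleted sets, which overlapped, and Eif4g2 read 694 and 288 CPM in WT, 234 and 285 CPM in CD8-depleted and 516 CPM in CD3e-/- set 2.

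Of 20 further clock genes, all tested, 0 passed by edgeR in any comparison over 6 or 5 sets. The number at an unadjusted p under 0.05 by edgeR over 6 sets was 1, 1 and 2. The order is CD8-depleted and CD3e-/- against WT, then CD3e-/- against CD8-depleted. Of all 12936 genes, 341, 1071 and 505 were under it. Over 5 sets, 3 were in CD8-depleted against WT, beside 1330 of all 13374 genes. DESeq2 and limma-voom called 0 of them over 6 sets as well. Without CD3e-/- set 2, 1 passed as higher and 4 as lower in CD3e-/- than in WT, where 33.2% of all genes passed, and 1 as higher and 1 as lower than in CD8-depleted, where 25.1% did. Their median log2 fold change in CD8-depleted against WT was −0.78 beside 0.02 over all genes. Below 0 were 16 of 20, beside 6359 of all 12936 genes. This is the contrast in which Nr1d2 had been seen to be low, and the direction of the list was not tested. Among the most abundant were the kinase genes Csnk1a1 and Gsk3b, whose products mark PER and other clock proteins, at 112 to 153 and 88.1 to 159 CPM over the 6 sets with the groups overlapping for both. Bhlhe41 (DEC2), an E-box repressor, was 4.41-fold higher in set 1 than in set 2 of WT (52 and 11.8 CPM), and read 20.5 and 14.1 CPM in CD8-depleted and 87.7 and 51.8 CPM in CD3e-/- sets. Thus large gaps between the WT sets were not confined to Arntl.

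Of 13 genes that clocks are known to drive, 0 passed by edgeR over 6 or 5 sets, and 0 passed by DESeq2 or limma-voom. At an unadjusted p under 0.05 by edgeR over 6 sets were 1, 0 and 0, beside 341, 1071 and 505 of all 12936 genes. Over 5 sets, 5 were in CD8-depleted against WT, beside 1330 of all 13374 genes. With CD3e-/- set 2 left out, 10 passed as lower in CD3e-/- than in WT (33.2% of all genes passed in either direction) and 5 as lower than in CD8-depleted (25.1% of all genes). Usp2, a deubiquitinase gene with a strong daily rhythm, read 317 and 472 CPM in WT, 506 and 740 CPM in CD8-depleted, and 132 and 629 CPM in CD3e-/- sets, set 2 being higher in each group. Dgat2, which makes triglyceride, read 337 and 244 CPM in WT, 195 and 124 CPM in CD8-depleted, and 13.2 and 254 CPM in CD3e-/- sets. In CD8-depleted against WT, Bdh1 (125 to 238 CPM) stood at a log2 fold change of 0.15 (SE 0.83) and Pik3r1 (97.7 to 176 CPM) at −0.50 (SE 0.72). The 13 had a median of −0.58 there, beside 0.02 over all genes.

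Per1 is also induced by glucocorticoids and by the signals that raise immediate early genes, and both were read beside it. Of 9 glucocorticoid-responsive genes 0 passed by edgeR over 6 or 5 sets, nor did any by DESeq2 or limma-voom. By edgeR over 6 sets, 0 had an unadjusted p under 0.05 in any comparison. Over 5 sets, 2 did in CD8-depleted against WT, beside 1330 of all 13374 genes. In the fit without CD3e-/- set 2, 1 passed as higher and 5 as lower in CD3e-/- than in WT (33.2% of all genes passed), and 1 as higher and 4 as lower than in CD8-depleted (25.1% of all genes). The metallothionein genes Mt1 (790 to 1597 CPM in the 5 larger sets) and Mt2 (47.1 to 139 CPM) were lower in set 1 than in set 2 of each group. Between the WT sets the list went both ways, with Fkbp5 and Zbtb16 lower in set 1 and Tsc22d3 and Errfi1 higher. Zbtb16 read 62.1 and 215 CPM in the WT sets and 107 to 278 CPM in the others, and Klf9, a target of both the clock and glucocorticoids, 188 and 90.5 CPM in WT, 60.1 and 85.2 CPM in CD8-depleted and 69.5 and 156 CPM in CD3e-/- sets. Of 16 immediate early genes, 13 had enough counts to be tested, and 1 passed, Fos, in CD8-depleted against WT over 5 sets (log2 fold change 5.94, SE 1.24, edgeR adjusted p = 0.0207) but not over 6 (adjusted p = 1). DESeq2 called Fos in that comparison over 6 sets, where it called 8 of all genes. It called Egr3 in CD3e-/- against WT, where it called 611 of all genes. By limma-voom none of the 13 was called. When CD3e-/- set 2 was left out, 14 were tested, of which 2 passed as higher and 1 as lower in CD3e-/- than in WT (33.2% of all genes passed), and 3 as lower than in CD8-depleted (25.1% of all genes). Fos read 0.253 and 0.146 CPM in WT, 10.9 and 14.4 CPM in CD8-depleted, and 0 and 0.873 CPM in CD3e-/- sets, and its reads in the CD8-depleted sets came from 6 of 62 and 5 of 49 cells. Btg2 (29.2 to 50.9 CPM in the 5 larger sets), Dusp1 (15 to 66.7), Ier3 (16.4 to 33.8) and Zfp36 (12.2 to 25.0), the most abundant of the list, had adjusted p of 0.41 or more in CD8-depleted against WT in both fits.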

How the data were processed

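Single cardiomyocytes were sequenced by Smart-seq2. The authors' processing, per the labels, used fastp 0.21.0 for trimming, STAR 2.7.5c on mm10 for alignment and featureCounts for counting (version and strand setting not given in the sources used here). The paper's methods name another aligner and build. The deposited values are raw counts per gene and cell, with no normalization, and exon lengths.

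The 13 mitochondrially encoded genes were left out of totals. Cells with at least 3000 detected genes (320 of 375, with totals of 255214 to 6896166 counts) were summed per group and set number. CPM used plain totals and fold changes TMM factors. Groups were compared with edgeR 4.0.16 (filterByExpr, quasi-likelihood F test, Benjamini-Hochberg over all genes tested, threshold 0.05) in R 4.3.3, with 3 residual degrees of freedom over 6 sets and 2 over 5. The test was checked on simulated counts. As alternatives, other tools (DESeq2 1.42.0, limma-voom from limma 3.58.1), scalings, cell and gene filters and thinning were run, as were a replicate block on the set number and fits leaving out single sets. Python 3.11.15 with numpy 2.4.6, pandas 2.3.3, scipy 1.17.1 and matplotlib 3.10.9 made the other values. Shares of cells have Wilson intervals, and ratios of counts exact binomial ones.

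The members, the lists beside them and the tests were chosen with earlier results of these data known. Named beside the members were the genes of each list that passed over 6 or 5 sets, the 4 most abundant of each list, and the 5 genes most like Nr1d2 from cell to cell. A gene that this rule names is not reported here. Same-numbered sets of different groups did not deviate together (correlations of −0.05, 0.07 and −0.19 over genes).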

Additional observations from a re-analysis of the deposited data

How the results depend on the processing

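The counts of genes called rested on the 11 cells of CD3e-/- set 1 and on the tool. From 0 over 6 sets in each comparison, the count for CD8-depleted against WT, CD3e-/- against WT and CD3e-/- against CD8-depleted became 8, 611 and 15 with DESeq2 and 12, 303 and 106 without a low-count filter, and with sets left out it ran from 0 to 47, 0 to 4588 and 0 to 3472. It stayed 0 under the other alternatives, the replicate block included (0, 0 and 0). That block cannot show whether set numbers pair the samples, which is not given in the sources used here. The group means of the phase contrast ran from 0.869 to 2.84 in WT, 1.24 to 3.30 in CD8-depleted and 0.238 to 1.49 in CD3e-/- over the settings that keep all sets. With a set left out, the mean is the value of the other set (0.81 to 2.96, 1.27 to 4.08 and −1.09 to 3.24), which says nothing about stability.

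Of the tested members, Nr1d1, Per3 and Dbp kept their direction in both CD3e-/- comparisons under every alternative run, Per2 did against WT and Clock did against CD8-depleted. Against WT, log2 fold changes changed sign for Arntl with limma-voom (−1.02), Per1 without each set's highest cell (−0.0717), Cry1 with cells weighted alike (−0.18) and Tef with limma-voom (−0.0285) and the replicate block (−0.0543). Against CD8-depleted, they did so for Arntl with limma-voom (−0.43), Per1 with all cells (−0.0432), cells weighted alike (−0.58) and without the highest cell (−0.67), Per2 in cells with at least 5000 genes (−0.24), and Cry1 with limma-voom (0.13), thinned cells (0.31) and without the highest cell (0.58). With sets left out, the values against WT ran from −1.88 to 2.95 for Arntl, −0.40 to 0.64 for Clock, −0.14 to 1.42 for Per1, −7.72 to 1.22 for Cry1 and −1.32 to 0.85 for Tef, and against CD8-depleted from −1.59 to 4.32 for Arntl, −0.00165 to 0.0996 for Per1, −0.23 to 1.21 for Per2, −8.39 to 0.58 for Cry1 and −1.04 to 1.14 for Tef. In CD8-depleted against WT, given without a test, sets left out moved Arntl from −2.95 to 1.42, Per1 from −0.14 to 1.37, Cry1 from −0.07 to 1.27 and Dbp from −0.65 to 0.74, while Nr1d2 ran from −2.41 to −1.82. With cells weighted alike Per2 was at 0.34 and Nr1d1 at −1.51, Per2 was at 4.68 in cells with at least 5000 genes, and Arntl was at 1.35 in thinned cells. The causes were not tested. Setting the CPM with TMM factors beside plain CPM was chosen after seeing the data.

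Depth limits the low members most: Arntl rested on 3 to 187 reads and Per2 on 17 to 167 reads per set. With 2 sets per group a member that did not pass may still differ by several-fold.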
